A study of Mus musculus with 18 samples.

Results

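Peaks of Argonaute2 (Ago2) binding that hold a seed match for the miR-17 family (miR-17, miR-20, miR-93 and miR-106) were examined in mouse colonic epithelium with and without an activated K-Ras allele. A peak was taken as a member when the authors' site annotation listed that family for it, which no read count entered. The rule found 225 member peaks among 5448 annotated peaks, themselves part of 5554 merged peaks. By number of peaks this family ranked 13 among the annotated families, and the let-7 family, with 578 peaks, ranked highest.

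The study holds 18 libraries in 6 groups of 3: miRNA libraries, mRNA pulldown libraries and input controls, each from 2 genotypes. All mice were C57BL/6, 8 to 12 weeks old, and carried a heterozygous Halo-Ago2 allele and Fabp-Cre, a Cre transgene expressed in the intestinal epithelium. The animals called WT here had the genotype Halo-Ago2/+; Fabp-Cre/+, so the controls also carry the tagged Ago2 and the Cre. Those called G12D had Halo-Ago2/+; Fabp-Cre/+; K-Ras-G12D/+, with the oncogenic allele heterozygous. The distal colon was scraped, and its RNA was crosslinked with 3 UV exposures of 400 mJ/cm2. Ago2 carrying a HaloTag, a protein that binds covalently to a resin, was then pulled down with the small RNAs and target fragments it held. The 6 input libraries were not analysed here. Whether the 3 libraries of a group stand for 3 mice is not stated in the labels. The p-values measure only how far these libraries spread, and that spread may be technical.

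Ago2 is the effector protein that miRNAs guide to messenger RNAs, mostly by pairing of the miRNA seed (bases 2 to 8) with the 3' UTR, and the guided complex represses translation and shortens the message's life. A crosslinked read cluster marks where Ago2 sat, and the miRNA is inferred from the seed match in it. The miR-17 family comes from paralogous clusters, best known from miR-17~92, whose products promote proliferation and repress cell-cycle brakes such as Cdkn1a and Rb1. In the gut, as elsewhere, these miRNAs are associated with proliferating cells and with tumours.

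The family's 6 mature sequences are printed because they set the shared site that defines the members. They were copied from RefSeq (GRCm38.p6), 5' to 3', with the seed in capitals:
miR-17-5p: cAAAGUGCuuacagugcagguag
miR-20a-5p: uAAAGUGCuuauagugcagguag
miR-20b-5p: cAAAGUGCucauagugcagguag
miR-93-5p: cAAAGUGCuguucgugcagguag
miR-106a-5p: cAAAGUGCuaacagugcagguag
miR-106b-5p: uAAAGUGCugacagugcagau
All 6 share the seed AAAGUGC. They lie in 3 clusters: miR-17-5p (chr14:115043684-115043706, plus strand) with miR-20a-5p, miR-93-5p (chr5:138165574-138165596, minus strand) with miR-106b-5p, and miR-106a-5p (chrX:52742541-52742563, minus strand) with miR-20b-5p. Outside the seed they differ. Over all positions compared, the seed included, miR-17-5p and miR-106a-5p had the same base at 22 of 23, and miR-93-5p and miR-106b-5p at 16 of 21.

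The matching site in a target reads GCACTTTA as an 8mer, GCACTTT as a 7mer pairing with bases 2 to 8 (called 7m8 below), CACTTTA as a 7mer with a final A (7A1) and CACTTT as a 6mer. These letters follow from the seed. The peaks' own genomic sequence was not used here, and the site type is the one the authors' annotation gives. Because the members of the family share these letters, a peak cannot be assigned to 1 of the 6 miRNAs.

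The sites of 2 other families overlap this one in letters. Their sequences are shown since these 2 families were the ones most often annotated together with the members' own:
miR-130a-3p: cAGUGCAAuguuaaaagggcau
miR-19b-3p: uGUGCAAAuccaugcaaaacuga
The miR-130 site TTGCACT ends in 5 letters that also begin the miR-17 site, so that TTGCACTTT, with 9 letters, holds both. The miR-19 site TTTGCAC shares 4 letters, and TTTGCACTTT, with 10 letters, holds both. Among the members, 78 (34.7%) were also annotated for the miR-130 family, which includes miR-301a, against 3.80% of all annotated peaks. The 33 members also annotated for miR-19 made up 14.7% of the members, against 2.59% of all annotated peaks. An 8mer or 7m8 entry was present in 19 members for the miR-130 family and in 19 for miR-19. In the joined letters a T follows the other family's site, so they would give a 7m8 and not an 8mer. A shorter overlap would give a weaker site type. These counts, which pool 8mer and 7m8 entries, therefore do not measure how often the sites overlap. Whether the members hold the joined letters was not examined. Seen from the other side, 37.7% of the 207 miR-130 peaks and 23.4% of the 141 miR-19 peaks were members. Only 27 members (12.0%) were annotated for no other family, so for most of them the guiding miRNA family was not resolved by the annotation.

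Of the 6 miRNAs, miR-93-5p, miR-20a-5p and miR-17-5p were abundant on Ago2 in both genotypes, miR-106b-5p was lower, and the miRNAs of the X-linked cluster were nearly absent. Levels are normalized read counts, that is reads divided by the authors' size factor of the library. miR-93-5p had 3772, 2960 and 3628 normalized reads in the 3 WT libraries and 4086, 4035 and 3466 in the 3 G12D libraries. miR-20a-5p had 2315, 2292 and 3332 in WT and 3609, 5039 and 3061 in G12D. miR-17-5p had 1962, 2137 and 2716 in WT and 3096, 3642 and 2667 in G12D. For each of these the genotypes overlapped, as they did for all 6 miRNAs, while 29.5% of the 254 tested miRNAs had groups apart. miR-106b-5p, from the same cluster as miR-93-5p, had 1027, 884 and 736 in WT and 730, 637 and 873 in G12D. For miR-106a-5p the WT mean was 10.7 ± 1.92 normalized reads (SD, n = 3) and the G12D mean 11.5 ± 2.55, and miR-20b-5p had 0 to 3 reads per library. By mean level over both genotypes miR-93-5p ranked 33, miR-20a-5p 34, miR-17-5p 42, miR-106b-5p 72, miR-106a-5p 251 and miR-20b-5p 367 among 459 miRNAs. The levels of miR-93-5p, miR-20a-5p and miR-17-5p, neighbours in this order, overlapped over the libraries.

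No family miRNA passed the test between genotypes, though miR-20a-5p and miR-17-5p had higher means in G12D. The background was 15.7% of 254 tested miRNAs past a limma adjusted p of 0.05, and 0 of the 5 tested family miRNAs were among them. The log2 difference G12D minus WT was 0.55 ± 0.24 (SE) for miR-20a-5p (limma, adjusted p = 0.0948, unadjusted p = 0.0239, the only one of the 5 under 0.05). It was 0.47 ± 0.23 for miR-17-5p (limma, adjusted p = 0.182). For miR-93-5p it was 0.17 ± 0.22 (limma, adjusted p = 0.679), and for miR-106b-5p -0.24 ± 0.28 (adjusted p = 0.621). The sign for miR-93-5p and miR-106a-5p turned with the scaling of the libraries. Neither edgeR nor DESeq2 called any of the 5.

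As a share of all miRNA reads the family took 2.19%, 2.27% and 2.99% in WT and 2.49%, 2.58% and 2.14% in G12D. The genotypes overlapped, at 2.48% ± 0.439 and 2.41% ± 0.232 (SD, n = 3). Within the family, miR-93-5p made up 37.3% ± 3.63 of reads in WT and 33.3% ± 2.78 in G12D. miR-106b-5p made up 9.68% ± 2.29 and 6.59% ± 1.96, and miR-20a-5p 28.4% ± 3.30 and 33.1% ± 3.99. These shares do not depend on the scaling of the libraries.

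**Figure D1:**
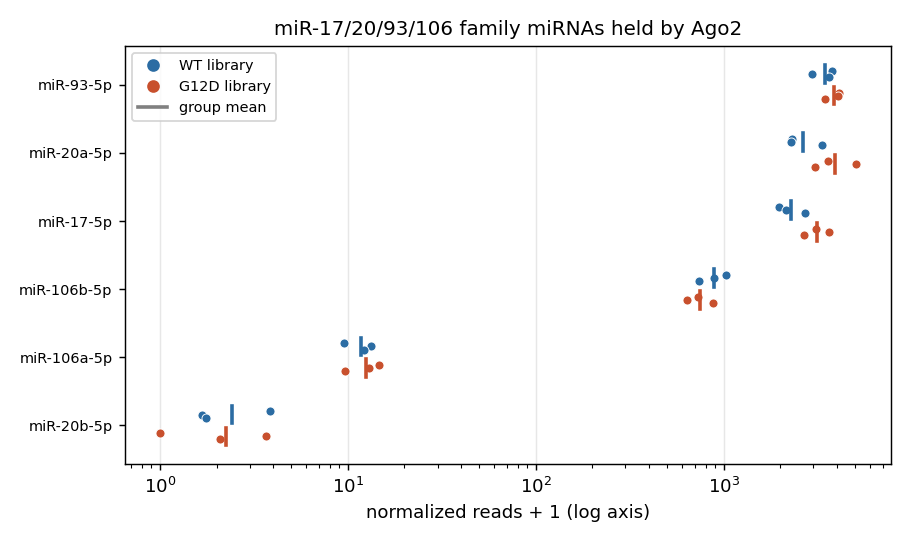
Levels of the miR-17 family miRNAs on Ago2 in the 3 WT and 3 G12D miRNA libraries, in normalized reads plus 1 on a log axis; each dot is 1 library and each tick a group mean. The genotypes overlap for every miRNA, and miR-106a-5p and miR-20b-5p lie far under the other four.

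The member peaks were mostly in 3' UTRs. By the authors' annotation, 148 of 225 (65.8%) lay in a 3' UTR, against 54.7% of all annotated peaks, 41.2% of let-7 peaks, 51.2% of miR-15/16 peaks and 63.3% of miR-30 peaks. Another 48 members (21.3%) lay in other exon sequence and 23 (10.2%) in introns, against 31.4% and 8.13% of all annotated peaks. The strongest site type in the peak was an 8mer in 73 members, a 7m8 in 81, a 7A1 in 18 and a 6mer in 53. Of the 8mer members, 55 of 73 were in 3' UTRs. The median member was 56 bases wide, as was the median annotated peak, with a range of 25 to 129 bases for the members. They carried 216 gene labels, and 9 genes had 2 member peaks each.

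The authors called peaks separately in each genotype and then merged the lists. Of the members, 34 (15.1%) were in both lists, 183 (81.3%) only in the G12D list and 8 (3.56%) only in the WT list. All annotated peaks split as 15.1%, 77.6% and 7.36%. Depth also differed between the genotypes. Reads in merged peaks numbered 100978, 54401 and 148770 for the pulldown from WT, against 148927, 723937 and 247358 for G12D. A WT library left 1294 to 1854 of the 5554 peaks unread, and a G12D library at most 177. Depth was nearly equal in WT replicate 3 and G12D replicate 1, which left 1327 and 177 peaks unread. Since most peaks were in the G12D list only, this pair cannot tell depth, the choice of peaks and genotype apart. The part of depth was not tested. Every gene in a list of 32 stromal, muscle and blood cell markers was without a peak, while 33 of 37 colonocyte and goblet cell genes had one.

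In G12D a larger share of the reads in merged peaks fell in member peaks. Most members, 183 of 225, were called only in the G12D list, as were most merged peaks. Because that list was set from the same reads, this share supports no difference between genotypes. The share of reads in merged peaks was 2.80%, 3.15% and 2.88% in WT and 4.32%, 4.67% and 4.31% in G12D. The genotypes were apart, at 2.94% ± 0.186 and 4.44% ± 0.206 (SD, n = 3 each). An exact permutation test of 3 against 3 cannot go below p = 0.10, so the libraries' values stand alone. Other families also took a larger share in G12D: let-7 peaks went from 9.94% ± 0.294 to 13.7% ± 0.919 and miR-15/16 peaks from 4.48% ± 0.452 to 6.42% ± 0.503. The miR-30 peaks had 3.09% ± 0.607 and 2.68% ± 0.340. Without the highest of all peaks, which alone took many reads, the members' share was 3.91% ± 0.354 in WT and 5.21% ± 0.252 in G12D. Among 3' UTR peaks alone it was 7.002% ± 0.458 and 8.22% ± 0.233. In a bulk tissue lysate, fewer cells of a type and less RNA per cell cannot be told apart, and the amount of the target message was not measured in the libraries used here.

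Ago2 reads were concentrated in a few members. The 10 members with the highest means held 47.9% to 51.4% of member reads in the WT libraries and 32.8% to 39.2% in the G12D libraries. The groups did not overlap, but the 10 were ranked on these same values. Of all members, 81.3% were in the G12D list only, so these shares support no difference between genotypes. The median member had a mean of 9.55 normalized reads, 62 members reached 20 and 14 reached 100.

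The highest member was an 8mer site in the 3' UTR of Ccdc71l (chr12:32379708-32379758, mm10, plus strand), a gene of little described function. It had 760, 548 and 623 normalized reads in WT and 823, 498 and 801 in G12D. The genotypes overlapped, and the log2 difference was 0.11 ± 0.37 (SE; limma, adjusted p = 0.809). Its sign turned with edgeR and DESeq2, and quantile normalization called it higher (0.59, adjusted p = 0.0403).

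The next was a 7m8 site in the 3' UTR of Tgoln1 (chr6:72611936-72611998, minus strand), which encodes a trans-Golgi network membrane protein. It had 276, 246 and 262 normalized reads in WT and 489, 564 and 645 in G12D. All 3 G12D libraries were above all WT libraries, a log2 difference of 1.10 ± 0.32 (limma, adjusted p = 0.0148). The call was lost without G12D replicate 3 (limma, adjusted p = 0.0596) and under edgeR's TMM scaling (adjusted p = 0.229).

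The exonic peak in Unc5b (chr10:60768408-60768462, minus strand), a netrin receptor gene, was high in WT with 469, 429 and 514 normalized reads and lower in G12D with 152, 137 and 283. The groups were apart, with a log2 difference of -1.37 ± 0.36 (limma, adjusted p = 0.00908). The adjusted p by limma rose to 0.0518 without G12D replicate 1 and to 0.0540 without G12D replicate 2.

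A 7m8 site in the 3' UTR of Txnip (chr3:96561636-96561693, plus strand), which encodes a thioredoxin-binding inhibitor of glucose uptake, had the opposite pattern. Its levels were 61.6, 40.6 and 46.4 normalized reads in WT and 293, 231 and 257 in G12D. The G12D mean was 5.26-fold the WT mean, with a log2 difference of 2.39 ± 0.32 (limma, adjusted p = 0.000293). It passed the threshold in each of the 18 alternatives run.

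Map3k9 encodes a kinase upstream of JNK, and its 3' UTR peak (chr12:81721901-81721954, minus strand) fell. It had 170, 197 and 415 normalized reads in WT and 32.7, 22.3 and 38.1 in G12D. The WT mean was 8.40-fold the G12D mean (log2 difference -2.95 ± 0.41, limma, adjusted p = 0.000304), and the call held in all 18 alternatives. The peak was also annotated for miR-130, miR-19 and 3 other families.

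Another exonic peak, in Nckap1, a subunit gene of the actin-regulating WAVE complex, had 563, 458 and 91.5 normalized reads in WT and 104, 24.6 and 67.5 in G12D. It was called lower (log2 difference -2.34 ± 0.67, limma, adjusted p = 0.0130) although the third WT library lay within the G12D range. The call was lost without WT replicate 1 (limma, adjusted p = 0.0652), without G12D replicate 2 (adjusted p = 0.0965) and without G12D replicate 3 (adjusted p = 0.0586). This peak was in the G12D list only, against its higher level in WT.

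Of the remaining members among the highest 10, none passed the test. The Prss8 3' UTR peak, in the gene of the epithelial protease prostasin, had 159, 139 and 188 normalized reads in WT and 244, 263 and 295 in G12D. Its groups were apart, but the adjusted p by limma was 0.0727 (0.00310 after quantile normalization). The Mfsd4 peak also had all G12D libraries above WT, with a log2 difference of 0.84 ± 0.33 (limma, adjusted p = 0.0518, and 0.0476 without WT replicate 3). The Susd6 peak gave -0.31 ± 0.39 (limma, adjusted p = 0.514), and edgeR with TMM called it lower (-0.97, adjusted p = 0.0446). The exonic peak of Tnrc6b, which encodes a GW182 protein that works with Ago2 in silencing, had 113, 113 and 213 in WT and 154, 134 and 140 in G12D (0.03 ± 0.35, limma, adjusted p = 0.946). The direction for Susd6 and Tnrc6b turned with the scaling or with a left-out library.

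**Figure D2:**
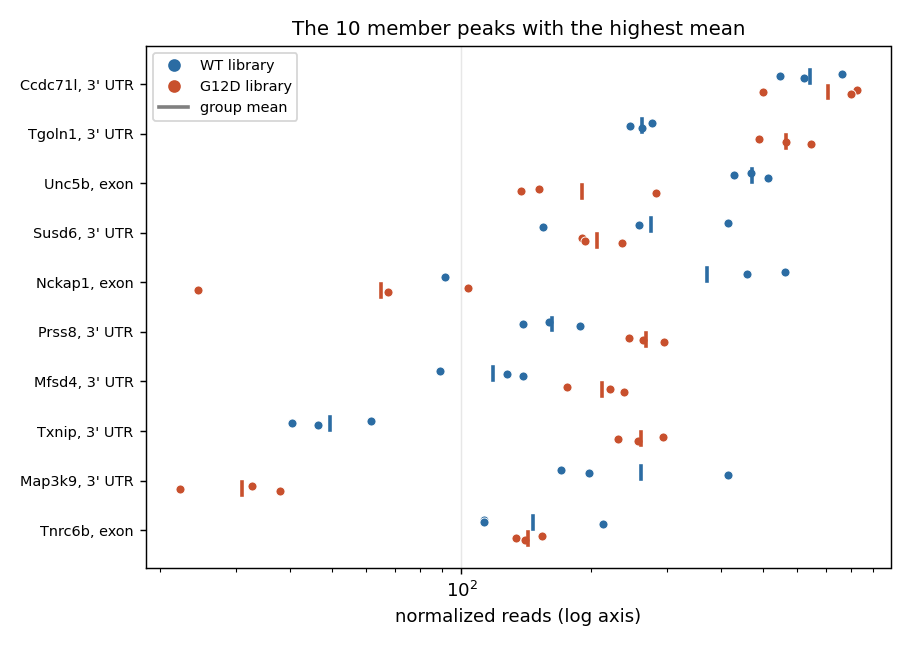
Normalized reads, on a log axis, in the 10 member peaks with the highest mean; dots are the 3 WT and 3 G12D libraries, vertical ticks the group means. Txnip and Tgoln1 lie higher in G12D, Unc5b and Map3k9 lie higher in WT, and Ccdc71l overlaps between the genotypes.

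Across the members, more were higher than lower in G12D, with a share of higher calls near that of all peaks and a smaller share of lower calls. A mean of at least 5 normalized reads was required for the test, which 183 of 225 members reached. The 42 others were given no test, and 41 of them had a higher mean in G12D than in WT. On either side of that filter were Atp1b1 with a mean of 5.11 and Zdhhc21 with 4.99. Members with 0 reads in all WT libraries numbered 12, of which 2 were tested, and no member had 0 reads in all G12D libraries.

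By limma, 81 of the 183 tested members (44.3%) passed an adjusted p of 0.05, against 48.9% of the 4438 peaks tested. The members called higher in G12D numbered 68 (37.2%), against 36.2% of all, and those called lower 13 (7.10%), against 12.7%. The median log2 difference was 1.15 for the members and 1.05 for all peaks. No test of the list against other peaks was made. Of the tested members, 87 had all G12D libraries above all WT libraries and 16 the reverse, against 43.9% and 15.2% of all tested peaks.

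Since the median of all peaks lay well above 0, the division into higher and lower depended on the scaling. Of the called members 84.0% were higher in G12D with the authors' size factors, 64.4% after quantile normalization, 63.3% with edgeR and TMM, and 72.4% with DESeq2. Over all tested peaks the higher calls were 1607 of 2170, 873 of 1675, 1093 of 1987 and 1130 of 1901, in the same order. The corresponding medians of all peaks were 1.05, 0.16, 0.47 and 0.66 on the log2 scale. Scaling to the same total per library moved the other way, with 80 higher and 12 lower members, or 87.0% higher. There 1844 of 2384 calls over all peaks were higher, and the median of all peaks was 1.23. Members with a mean of at least 20 gave 22 higher and 12 lower calls, or 64.7% higher. Over all peaks with such a mean, 429 of 790 calls were higher. Leaving out G12D replicate 2, the deepest library, left 38 higher and 7 lower, and leaving out G12D replicate 3 left 36 and 10.

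**Figure D3:**
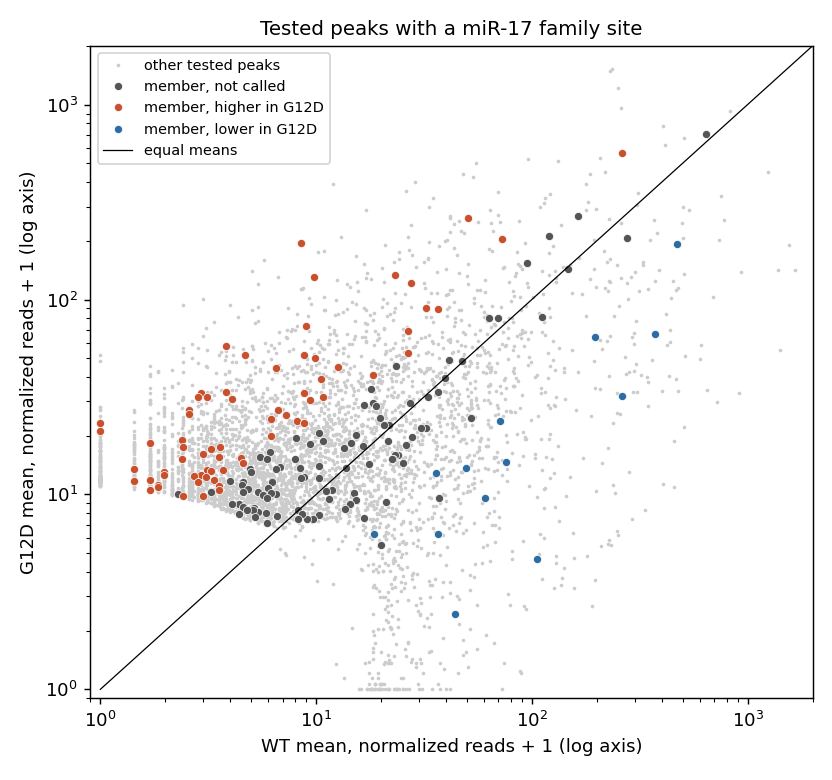
Mean normalized reads plus 1 in WT (horizontal) and G12D (vertical), both log axes, for the tested member peaks, drawn large, over the other tested peaks in light grey, up to the axis limit. Members called higher in G12D by limma (68) lie mostly at low WT levels, and the 13 called lower lie under the diagonal.

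The called members differed in level, which the filter partly set. The 68 called higher had a median WT mean of 2.64 normalized reads and a median G12D mean of 22.6, and 41 of them had a WT mean under 5. The 13 called lower had medians of 70.5 and 12.7. Many rising peaks were close to unread in WT, where 1 read was worth 1.29 to 2.90 normalized reads. Among all tested members, called or not, 68 had a WT mean under 5 and passed the filter only through their G12D reads. Only 3 tested members had a G12D mean under 5, and 2 of these were called lower. The levels of the called members therefore support no difference between genotypes.

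The peak lists carried much of this pattern. Of the 141 tested members in the G12D list only, 62 were called higher and 1 lower, near the 47% and 0.663% of all such peaks. The 34 members in both lists, which were all tested, gave 5 higher (14.7%) and 7 lower (20.6%), with 13.9% and 25.6% for all such peaks. Their median log2 difference was -0.15, against -0.45 for all peaks in both lists. The 8 members in the WT list only gave 1 higher and 5 lower, 6 calls in all, against 0.676%, 74.3% and, in all, 75% of such peaks. A peak's place in a list was set from the same reads, so these counts describe the lists and support no difference between genotypes.

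Both directions were called at every site type. Among 8mer members 22 of 66 tested were higher and 5 lower, and among 7m8 members 20 of 65 and 6. Among 7A1 members 6 of 13 were higher and 1 lower, and among 6mer members 20 of 39 and 1. The difference between site types was not tested. By position, 44 of 128 tested 3' UTR members were higher and 6 lower, 16 of 43 exonic members higher and 6 lower, and 8 of 10 intronic members higher and 0 lower. Over all tested peaks, 37.7% of those in 3' UTRs were higher and 6.81% lower, 28.7% and 18.6% in exons, and 65.5% and 17.8% in introns. Members also annotated for miR-130 or miR-19 gave 25 higher and 6 lower of 74, and the others 43 and 7 of 109. For comparison, let-7 peaks gave 170 higher and 51 lower of 483 tested, miR-15/16 peaks 118 and 42 of 367, and miR-30 peaks 35 and 24 of 126.

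In the authors' deposited table, 102 of the 225 members had an adjusted p under 0.05, against 49.5% of 5504 peaks. Of these, 86 were higher and 16 lower in the authors' deposited table, and 63 higher and all 13 lower limma calls were among them.

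On the log2(value + 1) scale, which compresses peaks with few reads, the member with the largest rise was a 7A1 site in the 3' UTR of Slc36a1 (chr11:55232949-55233002, plus strand), which encodes a proton-coupled amino acid transporter. It had 10.6, 2.90 and 9.02 normalized reads in WT and 141, 221 and 219 in G12D. The mean was 25.8-fold higher in G12D, a log2 difference of 4.63 ± 0.47 (limma, adjusted p = 0.000114). By the ratio of means Atg16l1, with 1 WT read, was higher at 29.0, and in the authors' deposited table the log2 fold changes of Ddah1 (5.91) and Ankrd9 (5.82) exceeded that of Slc36a1 (4.60).

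Xiap encodes an inhibitor of caspases. Its 3' UTR peak (chrX:42106140-42106196, plus strand) had 6.37, 17.4 and 2.58 normalized reads in WT and 94.9, 194 and 102 in G12D (log2 difference 3.98 ± 0.57, limma, adjusted p = 0.000365). The Emp1 peak (chr6:135381558-135381609, plus strand), in the 3' UTR of an epithelial membrane protein gene and annotated for no other family, had 4.25, 2.90 and 1.29 in WT and 64.3, 47.5 and 57.5 in G12D (3.98 ± 0.52, limma, adjusted p = 0.000274). Its WT values rest on 4 reads in all, and the depth-scaled ratio was 20.5 (95% exact interval 7.95 to 75.7). For Xiap and Emp1, every G12D library was far above every WT library.

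For the other members among the 10 largest rises, as for Emp1, WT held 0 to 4 reads over its 3 libraries, so their size was poorly bounded. Ddah1, which encodes an enzyme that degrades methylarginine inhibitors of nitric oxide synthase, had an intronic peak with 0 WT and 149 G12D reads. This was at least 11.05-fold higher in G12D when 3 reads over the WT group are taken as the floor, and the exact 95% interval of the ratio starts at 8.87. Ankrd9 had 0 WT and 195 G12D reads, at least 14.5-fold higher by the same floor, with an interval that starts at 11.65. Counting error alone is covered by these bounds and by the intervals that follow.

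App, the amyloid precursor protein gene, had 3 WT and 244 G12D reads, a depth-scaled ratio of 18.1 (95% exact interval 6.12 to 88.3). Ddx26b had 3 WT and 194 G12D reads, a ratio of 14.4 (4.85 to 70.4), and Gpr137b 1 and 147 reads, a ratio of 32.7 (5.78 to 1300). The peak labelled RP24-221F4.2 had 4 WT reads and 292 G12D reads. All 10 were called higher by limma, with log2 differences from 3.59 to 4.63, and none lost the call under the other scalings, filters, tools and left-out single libraries that tested it. RP24-221F4.2 lost it without both libraries numbered 2 (limma, adjusted p = 0.0792), a setting chosen after the data were seen.

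On the log2(value + 1) scale the largest fall was in Trpv6, the apical calcium channel gene of the intestine. Its 3' UTR 8mer peak (chr6:41620818-41620872, minus strand) had 31.8, 157 and 125 normalized reads in WT and 2.18, 2.27 and 6.46 in G12D. The WT mean was 28.7-fold the G12D mean, a log2 difference of -4.35 ± 0.63 (limma, adjusted p = 0.000384). The Atxn1l 3' UTR 8mer peak, in a gene for a partner of the Capicua repressor complex, had 34.0, 11.6 and 83.8 in WT and 0, 2.89 and 1.44 in G12D, a WT mean 29.9-fold the G12D mean (-3.98 ± 0.80, limma, adjusted p = 0.00220). The groups were apart for both, with a wide spread in WT.

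Mpst, a gene for a sulfurtransferase that makes hydrogen sulfide, had an exonic 7m8 peak that was tighter. Its levels were 61.6, 43.5 and 73.5 normalized reads in WT and 8.72, 7.01 and 10.1 in G12D (-2.64 ± 0.42, limma, adjusted p = 0.000595). The exonic peak of Ttc39b had 36.1, 31.9 and 38.7 in WT and 5.45, 3.92 and 6.46 in G12D (-2.56 ± 0.47, limma, adjusted p = 0.00135). In Lima1, which encodes the actin-bundling protein EPLIN, the fall was in a 5' UTR 8mer peak, with 78.5, 52.2 and 94.1 in WT and 12.0, 11.8 and 17.2 in G12D (-2.35 ± 0.40, limma, adjusted p = 0.000847). None of these 3 lost the call in an alternative that tested it.

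The peak in Ern1, the gene of the unfolded protein sensor IRE1, had 278, 200 and 108 normalized reads in WT and 46.9, 72.0 and 70.4 in G12D (-1.54 ± 0.40, limma, adjusted p = 0.00815, and 0.0551 without both libraries numbered 2). The other falls among the 10 largest with groups apart, which leaves out Nckap1, were Slc25a10, a mitochondrial dicarboxylate carrier gene (-1.82 ± 0.49), Gnb2l1, which encodes the ribosomal scaffold RACK1 (-1.57 ± 0.59), and Osbpl5, a lipid transfer protein gene (-1.49 ± 0.45). Each of the 3 depended on single libraries. By limma, Slc25a10 reached an adjusted p of 0.0513 without G12D replicate 2. Osbpl5 ranged from 0.0553 to 0.0589 without WT replicate 1 or without G12D replicate 1 or 2. Gnb2l1 stood at 0.0457 with all libraries and lost the call without any library but WT replicate 2. The Gnb2l1 call was also lost with a pseudocount of 0.5 (limma, adjusted p = 0.0553), the same total per library (0.0637) and a replicate block (0.0668).

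**Figure D4:**
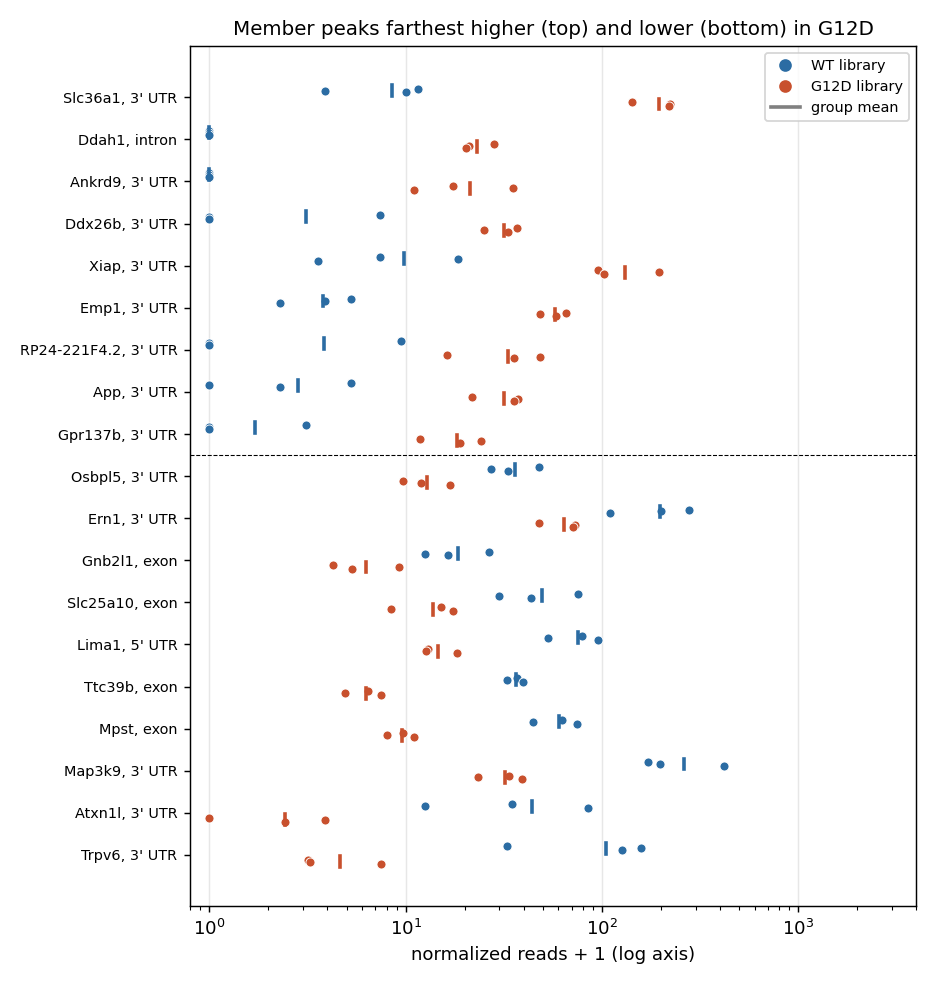
Normalized reads plus 1, on a log axis, for 9 of the 10 members with the largest rise and the 10 with the largest fall, among those past the limma threshold with groups apart (so without Nckap1); dots are the 3 WT and 3 G12D libraries and vertical ticks the group means. The rising members start from low WT values, while the falling ones lie at moderate levels in WT.

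Known targets were examined through gene lists assembled from textbook knowledge. Of 50 classical miR-17 family targets, 23 had any Ago2 peak and 8 had a member peak. All 8 were tested: 7 were higher in G12D, 0 lower, and the median log2 difference was 2.37. Over all 66 tested peaks of the listed genes, 36 were higher and 1 lower, with a median of 1.64. For this list and those that follow, the background over all tested peaks was 36.2% higher and 12.7% lower, with a median of 1.05. The genes with a member peak include Txnip, App, Ccnd1, Stat3, Atg16l1, Rb1 and Cdkn1a. Of these, all but Txnip had their member in the G12D list only. Over all tested peaks in that list only, 47% were higher and 0.663% lower, with a median of 1.68. App, Atg16l1 and Rb1 had WT means under 5 and passed the filter only through their G12D reads. The counts in this list and those that follow therefore support no difference between genotypes.

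Ccnd1, the gene of cyclin D1, which drives entry into S phase, had an exonic 7m8 peak (chr7:144934021-144934076, minus strand). It had 6.37, 8.69 and 11.6 normalized reads in WT and 60.0, 43.3 and 43.8 in G12D (2.36 ± 0.43, limma, adjusted p = 0.00132). Stat3, a transcription factor gene downstream of cytokine receptors, had an exonic 8mer peak with 16.98, 5.796 and 6.44 in WT and 36.0, 22.5 and 33.8 in G12D (1.68 ± 0.52, limma, adjusted p = 0.0196). Without 1 of WT replicate 3, G12D replicate 1 or G12D replicate 3, the adjusted p by limma for Stat3 lay between 0.0527 and 0.0887, and the call was also lost with quantile normalization (0.0690), edgeR with TMM (0.110) and DESeq2 (0.0705). Atg16l1, an autophagy gene, had an 8mer peak with 1 WT read and 100 G12D reads (3.32 ± 0.62, limma, adjusted p = 0.00140). It was the one member among the 15 genes of the autophagy list, whose 4 tested peaks gave 2 higher and 0 lower.

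Cell-cycle genes had 5 members among 31 listed genes, of which 2 were higher in G12D and 0 lower. Besides Ccnd1 this was Rb1, the retinoblastoma brake on E2F, with 2.12, 2.90 and 1.29 normalized reads in WT and 7.63, 13.2 and 12.9 in G12D (1.98 ± 0.62, limma, adjusted p = 0.0202). The Rb1 call was lost without G12D replicate 2 (adjusted p = 0.0810) or 3 (0.0790), and with quantile normalization (0.332), edgeR and TMM (0.0678) and DESeq2 (0.0639). Cdkn1a, the p21 cyclin-dependent kinase inhibitor gene, had 6.37, 0 and 9.02 in WT and 12.0, 16.7 and 17.95 in G12D. Its groups were apart, but the adjusted p by limma was 0.0694 (0.0389 without WT replicate 3). The antiproliferative gene Btg2 had a log2 difference of 1.66 ± 0.65 (limma, adjusted p = 0.0528, and 0.0326 or 0.0292 without WT replicate 1 or 2). Wee1, a mitotic entry kinase gene, gave 1.18 ± 0.92 (limma, adjusted p = 0.296). Over all 42 tested peaks of the cell-cycle list, 23 were higher and 0 lower.

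Among 35 RAS and MAPK genes there were 3 members, of which 2 were higher and 1 lower in G12D. Rasa2, a RAS GTPase-activating protein gene, had 6.37, 8.69 and 6.44 normalized reads in WT and 21.8, 31.2 and 15.8 in G12D (1.51 ± 0.51, limma, adjusted p = 0.0277). Spred1, an inhibitor of RAF activation, had 2.12, 0 and 3.87 in WT and 8.72, 10.5 and 7.18 in G12D (1.97 ± 0.70, limma, adjusted p = 0.0359). Map3k5, the gene of the stress kinase ASK1, had 59.4, 34.8 and 117 in WT and 21.8, 23.7 and 23.0 in G12D (-1.41 ± 0.45, limma, adjusted p = 0.0229). The groups were apart in all 3.

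Each of these 3 calls was lost without 1 of several libraries. By limma, Rasa2 reached adjusted p of 0.0503 to 0.141 without any 1 of the G12D libraries. Spred1 reached 0.0777 to 0.114 without WT replicate 2 or any 1 of the G12D libraries. Map3k5 reached 0.0694 to 0.0851 without WT replicate 3 or any 1 of the G12D libraries. Quantile normalization, edgeR with TMM and DESeq2 also removed the calls of Rasa2 and Spred1. Over the 31 tested peaks of the list, 12 were higher and 4 lower.

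Other lists held few members. Of 25 TGF-beta and BMP genes, a growth-inhibitory pathway, the receptor gene Acvr1b had a member at -0.39 ± 0.54 (limma, adjusted p = 0.551), and the SMAD corepressor gene Skil had one with 0 WT and 60 G12D reads, under the filter. The list's 18 tested peaks gave 6 higher and 1 lower. Of 27 apoptosis and PI3K genes only Xiap had a member, and the list's 42 tested peaks gave 16 higher and 1 lower.

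Among colonocyte and goblet cell genes, 5 had 6 member peaks, of which 5 were tested, 3 higher and 0 lower. Ceacam1, an adhesion molecule gene of mature colonocytes, had 2 of them. Car1, the gene of carbonic anhydrase 1, had 2 WT reads and 132 G12D reads (3.14 ± 0.69, limma, adjusted p = 0.00349). The water channel gene Aqp8 had 29.7, 26.1 and 11.6 normalized reads in WT and 44.7, 37.8 and 51.0 in G12D. Its adjusted p by limma was 0.0662, and 0.0473 without WT replicate 1. For the sulfate transporter gene Slc26a2 the levels were 53.1, 2.90 and 52.8 in WT and 3.27, 10.3 and 12.2 in G12D (-1.38 ± 0.92, limma, adjusted p = 0.227). Leaving out WT replicate 2, the shallowest library, moved Slc26a2 to -2.65 (limma, adjusted p = 0.00309), and quantile normalization, edgeR with TMM and DESeq2 also called it lower. The Muc2 peak, in the gene of the goblet cell mucin, was under the filter. The list's 184 tested peaks gave 80 higher and 23 lower, so colonocyte messages were read on both sides.

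The 9 genes with 2 member peaks, named here after their values were seen, show whether sites in 1 message moved together. Both members were higher in 2 of them. The Ceacam1 3' UTR peak had 8.49, 5.796 and 9.02 normalized reads in WT and 54.5, 51.0 and 47.4 in G12D (2.58 ± 0.42, limma, adjusted p = 0.000669). Its exonic peak, the only member of the WT list alone that was called higher, gave 1.30 ± 0.44 (limma, adjusted p = 0.0302). The exonic call was lost without WT replicate 2 or 3 or G12D replicate 1 or 3 (limma, adjusted p = 0.0609 to 0.130), with no variance trend (0.0793), with edgeR and TMM (0.172) and with DESeq2 (0.122).

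Trp53inp2, an autophagy and transcription cofactor gene, had 2 peaks 56 bases apart in its 3' UTR, with log2 differences of 1.96 ± 0.56 and 2.58 ± 0.75 (limma, adjusted p = 0.0129 and 0.0139). Both missed the threshold without G12D replicate 2 or 3 (limma, adjusted p = 0.0521 to 0.0780). Quantile normalization also removed both calls (limma, adjusted p = 0.0559 and 0.124), and edgeR with TMM removed the first (adjusted p = 0.0620). In Atg2a, Nipal1, Slc36a1, Tmcc3 and Vps13d, 1 member was called higher and the other was not called or not tested, and in Plekhm1 and Ubfd1 neither was called. The calls in Atg2a, Nipal1 and Tmcc3 were lost without G12D replicate 3, with limma adjusted p of 0.0998, 0.121 and 0.0823, and without some of the other libraries. These calls were also lost with quantile normalization, edgeR with TMM and DESeq2. For Nipal1 the adjusted p was 0.759 by limma after quantile normalization, 0.200 by edgeR with TMM and 0.154 by DESeq2. A pseudocount of 0.5 and a replicate block also removed the Nipal1 call. The exonic Plekhm1 peak (-1.02 ± 0.41, limma, adjusted p = 0.0562) was called lower without WT replicate 1 (adjusted p = 0.0261), after quantile normalization and with edgeR or DESeq2. The tested Ubfd1 peak was called higher without WT replicate 1 (limma, adjusted p = 0.0441).

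The clearest unequal pair was in Slc36a1. Its second member, an 8mer 2743 bases further along the same 3' UTR, had 0, 8.69 and 19.3 normalized reads in WT and 5.45, 4.95 and 10.1 in G12D (0.37 ± 0.98, limma, adjusted p = 0.764), with a sign that turned with the scaling. Between them lay a peak without a miR-17 site (chr11:55233779-55233837) that fell from 431, 330 and 552 in WT to 50.2, 85.0 and 71.8 in G12D (-2.65 ± 0.35, limma, adjusted p = 0.000287). So within this message, reads at neighbouring peaks moved in opposite directions. In Vps13d the intronic member had a log2 difference of 3.01 ± 0.60 and the exonic one -0.19 ± 0.66 (limma, adjusted p = 0.00208 and 0.819). After quantile normalization the exonic peak was called lower (-1.65, adjusted p = 0.0465).

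Whether a member moved with the other Ago2 peaks of its gene was examined for the 107 tested members, in 102 genes, that had at least 1 other tested peak without a miR-17 site. The member's log2 difference and the median of the other peaks had the same sign in 77 of 107, where 87 of the members and 91 of the medians were above 0, so the count is no sign of a relation. Across these members Pearson's r was -0.04 and Spearman's rank correlation 0.05, given as a description since all points share the same 6 libraries. Other peaks were counted once for each member, so that peaks of a gene with 2 tested members were counted again. Counted so, the 47 members called higher had 221 other peaks, of which 125 were higher and 17 lower. The 11 other peaks of Ceacam1 and the 5 of Trp53inp2 entered this count for each of their members. The 55 not called had 179 other peaks, 73 higher and 14 lower. The other peaks of Slc36a1, Atg2a and Tmcc3 entered both groups. Over all tested peaks, 36.2% were higher and 12.7% lower.

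For the 5 members called lower with another tested peak, the other peaks mostly went the other way. Of 8 such peaks, 6 were called higher in G12D and 1 lower. In Lima1 the 5' UTR member fell while an intronic peak had 0 reads in every WT library and 12.0, 5.78 and 16.5 normalized reads in G12D (3.53 ± 0.57, limma, adjusted p = 0.000657). In Map3k9 the member fell, 1 neighbouring 3' UTR peak was also lower (-2.03 ± 0.74, limma, adjusted p = 0.0395), and an exonic peak had 0, 0 and 1.29 in WT and 18.5, 21.5 and 20.8 in G12D (4.01 ± 0.63). Atxn1l had 2 other 3' UTR peaks, at 2.72 ± 0.66 and 3.35 ± 0.74, and the other tested peak of Nckap1 stood at 3.55 ± 0.55. Those 6 higher peaks were all in the G12D list only, with WT levels at or near 0. In WT replicate 3 and G12D replicate 1, of nearly equal depth, the Lima1 intronic peak had 0 and 12.0 normalized reads and the Map3k9 exonic peak 1.29 and 18.5. As both peaks were in the G12D list only, this pair cannot tell depth, the choice of peaks and genotype apart.

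In Txnip, by contrast, the member and the other peaks moved alike. It had 12 other tested peaks, of which 10 were higher and 0 lower, with log2 differences from 0.71 to 2.81 and a median of 1.77, against 2.39 for the member.

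**Figure D5:**
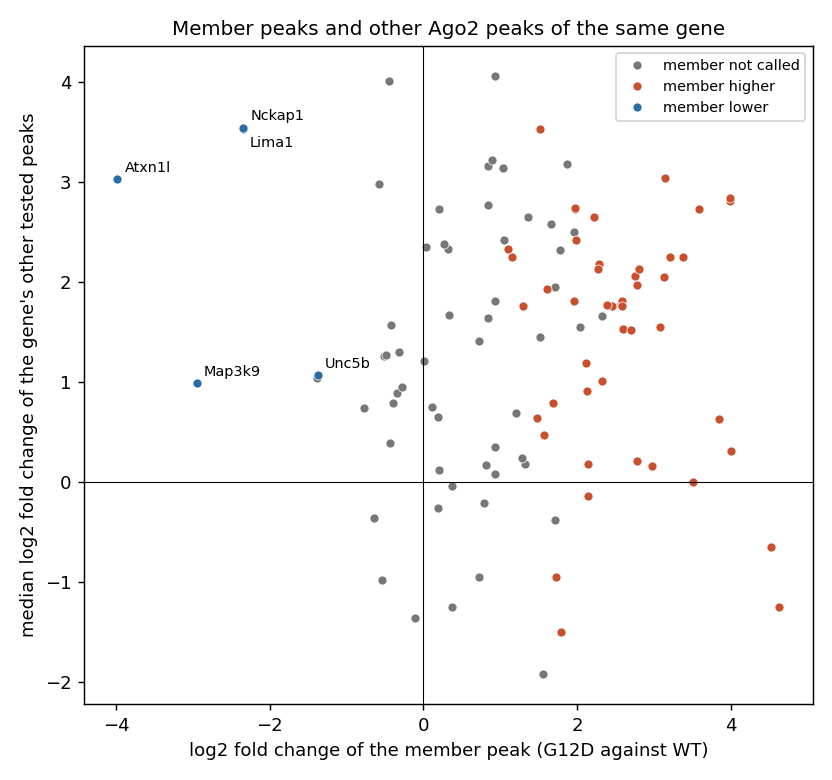
Log2 difference G12D minus WT of each of 107 member peaks (horizontal) against the median of the other tested peaks of the same gene without a miR-17 site (vertical). The 5 members called lower sit at the left with other-peak medians above 0, and 41 of the 47 members called higher also have medians above 0.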

How the data were processed

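The authors mapped reads with STAR 2.5.2b and used DESeq2, per the submitters' processing notes, which name mm10. The peak caller is not given in the sources used here. The deposited tables hold normalized signal, that is reads divided by a size factor, per merged peak and per miRNA. They also hold the authors' log2 fold changes and adjusted p-values, and a deposited annotation with site types per peak. The deposited peak lists carry a score per peak, which was used in no result. Peak columns named by genotype and replicate were taken as the pulldown mRNA libraries. Dividing each column by its smallest step gave whole reads, within 0.01 of a read, for 100.0% of values. The recovered reads total 54401 to 723937 per pulldown library and 337788 to 535932 per miRNA library.

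The main test was limma 3.58.1 (R 4.3.3) with a variance trend on log2(normalized reads + 1), over all peaks with a mean of at least 5 or all miRNAs with a mean of at least 10. Benjamini-Hochberg adjustment ran over all features tested. Differences are G12D minus WT, and they understate changes of low features. Alternatives used edgeR 4.0.16 and DESeq2 1.42.0 on the recovered reads (edgeR called 60 members and DESeq2 58), quantile and total scaling, other filters and pseudocounts, a replicate block and leaving out each library. The fit was tested on simulated data. Ratios of few reads carry exact 95% intervals from scipy 1.17.1, which cover counting error only.

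Members were matched to genes by the annotation's labels. Named members are the 10 with the highest mean, the 10 called members with groups apart that were farthest in each direction, and those of the gene lists (up to 4 examples each). Rb1, Car1, Muc2 and the genes with 2 member peaks were added after their values were seen. The members and lists were chosen with earlier results of these data known. Mature miRNAs (6 of 6 matched) were copied from RefSeq. The result of 1 member among the 10 largest rises is not reported here.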

Additional observations from a re-analysis of the deposited data

How the results depend on the processing

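Against 81 called members (68 higher, 13 lower), the counts moved with the filter, the scaling and single G12D libraries. No filter gave 116 calls, 103 of them higher, and a mean of at least 20 gave 34, with 22 higher. Quantile normalization gave 38 higher and 21 lower, edgeR with TMM 38 and 22, and DESeq2 42 higher. Leaving out 1 library gave 45 to 83 calls, 36 to 72 higher and 7 to 15 lower. With 8mer and 7m8 sites alone, 53 members were called, 42 higher. Settings chosen after seeing the data gave 41 higher without both libraries numbered 2, and 12 calls, 5 higher and 7 lower, for peaks in both lists. The members' share of reads moved to 3.91% in WT and 5.21% in G12D without the highest peak. For peaks in both lists the share was 2.68% in WT and 4.25% in G12D. Over these alternatives, 0 of the 81 called members changed sign, and 30 (23 higher, 7 lower) passed under every setting that tested them, leaving aside those chosen after seeing the data. Over all peaks, the 2170 calls became 790 at a mean of at least 20, 1410 without G12D replicate 2 and 1451 without G12D replicate 3.

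Some members that were not called turned sign, in log2. Under quantile normalization the values were 0.14 for Susd6, -0.32 for the 3' UTR peak of Plekhm1, -1.07 for the second Slc36a1 peak, -0.27 for Ubfd1, -0.97 for the 3' UTR peak of Atg2a and -0.079 for miR-93-5p. With edgeR and TMM they were -0.40 for Ccdc71l, -0.58 for Tnrc6b, -0.10 for Wee1, -1.17 for Slc36a1, -0.27 for Atg2a, -0.042 for miR-93-5p and -0.13 for miR-106a-5p. With DESeq2 they were -0.19 for Ccdc71l, -0.37 for Tnrc6b, -0.92 for Slc36a1 and -0.093 for Atg2a. With the same total per library, miR-93-5p stood at -0.20 and miR-106a-5p at -0.25. edgeR with the deposited factors gave -0.048 for Tnrc6b and -0.62 for Slc36a1. Without both libraries numbered 2, Tnrc6b stood at -0.076 and Wee1 at -0.23. Leaving out 1 library gave -0.013 to 0.35 for Ccdc71l, -0.67 to 0.036 for Susd6, -0.12 to 0.33 for Tnrc6b, -0.017 to 1.95 for Wee1, -0.90 to 1.27 for Slc36a1, -0.75 to 0.16 for the exonic peak of Vps13d, -0.29 to 1.37 for Atg2a and -0.053 to 0.26 for miR-106a-5p. The cause was not tested.

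Same-numbered pulldown libraries correlated at 0.04, -0.04 and -0.01 in their deviations, and same-numbered miRNA libraries at -0.00031, -0.42 and -0.32. With 3 libraries per group, these values cannot tell whether the samples were handled in pairs. A replicate block called 81 members, 69 higher and 12 lower. With 1 read worth 1.29 to 2.90 normalized reads in WT, falls from low WT levels were not detectable at this depth.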
